A study of Mus musculus with 6 samples.

Results

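The 31 genes described here belong to the NRF2 pathway, to glutathione and thioredoxin metabolism and to NADPH supply, and were measured in CT26 cells, a mouse colon carcinoma line. RNA was sequenced from cells with a control guide (sgControl, 3 libraries) and from cells whose guide targets Cdk10, a cyclin-dependent kinase gene (sgCdk10, 3 libraries). No other treatment, clone or culture detail is named for either group in the labels. The 31 genes were chosen by function, with earlier results of these data known, and matched by symbol among 57010 identifiers. Each matched 1 identifier, and all 31 passed the filter on low counts, which left 13442 genes for testing.

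NRF2, encoded by Nfe2l2, is a transcription factor that KEAP1 holds in the cytoplasm and marks for degradation. Oxidants and electrophiles modify KEAP1, and NRF2 then enters the nucleus, pairs with small MAF proteins and binds antioxidant response elements near its targets. The targets make and recycle glutathione, reduce thioredoxin and peroxides, supply NADPH through the pentose phosphate pathway and malic enzyme, and detoxify quinones, heme and epoxides. Because NRF2 is controlled largely through its stability, its mRNA level does not measure its activity.

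Promoters are shown here to give the sequence around the start of genes that the results below turn on. For 25 of the 31 genes RefSeq promoter windows on GRCm38.p6 were at hand, from 250 bases before to 50 after a start site. No entry was used for Gclc, Gsr, Gsta4, Prdx6, Hmox1 or Abcc1. The windows below, 5′ to 3′ on the strand of the gene, belong to the pair of called genes with the smallest p among those with a TGACNNNGC match, and to the pair of matching genes that were not called. Capitals mark matches on either strand to TGACNNNGC, the core of the antioxidant response element, or to TGANTCAGC, a related form that, in each gene matched here, also holds the AP-1 motif TGACTCA on 1 strand. The windows are, in order, chr3:122245307-122245606 (plus strand), chr2:152105274-152105573 (plus strand), chr9:86695865-86696164 (minus strand) and chr6:138140277-138140576 (plus strand).
Gclm: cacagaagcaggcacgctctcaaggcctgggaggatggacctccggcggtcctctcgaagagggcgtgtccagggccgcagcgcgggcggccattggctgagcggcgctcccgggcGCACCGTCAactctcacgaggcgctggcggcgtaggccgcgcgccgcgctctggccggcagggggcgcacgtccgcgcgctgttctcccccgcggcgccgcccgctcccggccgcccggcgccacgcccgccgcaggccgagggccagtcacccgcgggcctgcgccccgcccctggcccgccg
Srxn1: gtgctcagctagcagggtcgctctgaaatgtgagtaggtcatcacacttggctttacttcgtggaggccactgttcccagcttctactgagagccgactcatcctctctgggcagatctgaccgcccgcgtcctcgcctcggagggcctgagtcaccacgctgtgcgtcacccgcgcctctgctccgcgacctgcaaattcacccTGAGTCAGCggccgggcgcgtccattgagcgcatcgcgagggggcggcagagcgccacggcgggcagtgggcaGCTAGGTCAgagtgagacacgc
Me1: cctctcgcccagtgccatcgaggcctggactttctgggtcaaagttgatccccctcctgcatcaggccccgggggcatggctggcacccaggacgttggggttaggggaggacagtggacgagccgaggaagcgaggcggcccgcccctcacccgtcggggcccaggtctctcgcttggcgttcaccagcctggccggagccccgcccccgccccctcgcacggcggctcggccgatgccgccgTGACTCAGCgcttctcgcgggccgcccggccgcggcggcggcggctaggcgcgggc
Mgst1: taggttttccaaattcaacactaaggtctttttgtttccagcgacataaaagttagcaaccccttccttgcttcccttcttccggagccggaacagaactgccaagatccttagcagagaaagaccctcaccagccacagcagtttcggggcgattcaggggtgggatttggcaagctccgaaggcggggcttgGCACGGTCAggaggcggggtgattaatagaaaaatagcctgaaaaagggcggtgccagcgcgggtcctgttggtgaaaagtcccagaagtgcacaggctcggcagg

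A TGACNNNGC match on either strand was found for 10 of the 25 genes, namely G6pdx, Gclm, Me1, Mgst1, Nfe2l2, Pgd, Prdx1, Sod1, Srxn1 and Txnrd1. A gene was counted if any of its windows held the match. Me1, Mgst1, Pgd and Txnrd1 have more than 1 window, and only 1 window of each held it. For Me1 and Mgst1 that window is the one shown above. Such a match was held by 14.0% of all 27025 genes and 12.4% of all 32851 windows. TGANTCAGC was added after the promoters had been read and was found in 5 of the 25, Gstp1, Me1, Osgin1, Prdx1 and Srxn1, against 1.37% of all genes. In Me1 and Prdx1 the match reads TGACTCAGC and in Gstp1, Osgin1 and Srxn1 TGAGTCAGC, on 1 strand or the other. The AP-1 motif TGACTCA alone was present in the same 5 genes and in 5.95% of all genes. A match is a run of letters in this window and not a measured binding site.

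Total counts ran from 17532202 to 19258309 per library, and 3 counts, used as the floor of detection, corresponded to 0.156 to 0.171 CPM, the count scaled by the TMM-adjusted library total. For the targeted gene, Cdk10, the sgControl libraries held 381, 344 and 365 counts and the sgCdk10 libraries 204, 227 and 202. Replicate 3 of sgControl stood apart from replicates 1 and 2 of that group, at a chi-square over its degrees of freedom of 4.08 and 4.14, against 1.53 to 1.61 for other pairs within a group. The sum of 10 epithelial and colon markers was 37.0 to 40.8 CPM in sgControl and 58.1 to 59.4 in sgCdk10, nearly all of it Krt18 and Krt20. Of the 3 markers tested these 2 rose, and Muc2, counted 13, 16 and 16 times in sgControl and 7, 8 and 9 times in sgCdk10, fell (-0.93; edgeR adjusted p = 0.031). The part of these changes in the results below was not tested. Of the same markers Epcam was at 0 in every library and Cdh1, Vil1 and Lgr5 did not exceed the floor. Leukocyte markers were at or near 0, with a sum over 12 genes of 0.283 to 0.621 CPM in sgControl and 0.166 to 0.520 in sgCdk10. The 6 endothelial markers summed to 0.828 to 1.13 and 0.773 to 0.935 CPM.

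Most of the 31 genes were lower in the cells with the Cdk10 guide, by small amounts. In edgeR's quasi-likelihood test 18 fell, 4 rose and 9 were not called at an adjusted p of 0.05. Among all 13442 tested genes 20.4% fell and 22.1% rose, against 58.1% and 12.9% of the 31. As the 31 were chosen with earlier results of these data known, this contrast is a description. Because abundant genes are called more readily, the shares were also taken over genes with a mean of at least 10 CPM, a limit chosen after the values were seen. There, 16 of 27 members fell and 4 rose, while 25.7% of 9011 genes fell and 27.3% rose. The median log2 fold change of the 31, sgCdk10 over sgControl, was -0.15 (0.901-fold), and that of all tested genes was -0.0031. Without sgControl replicate 3 the counts were again 18 lower and 4 higher, and the median was -0.17. In 24 of the 31 genes (77.4%) no library of 1 group lay within the range of the other, as in 51.3% of all tested genes. G6pdx fell by 5.85%, the smallest called fall, and Nqo1 fell by 44.9%, the largest. Nqo1, Gclc, Osgin1, Gclm and Srxn1, 5 of the 31, fell by over 20%, as did 6.55% of all tested genes. In bulk libraries fewer cells with a transcript and less of it per cell cannot be told apart.

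**Figure D1:**
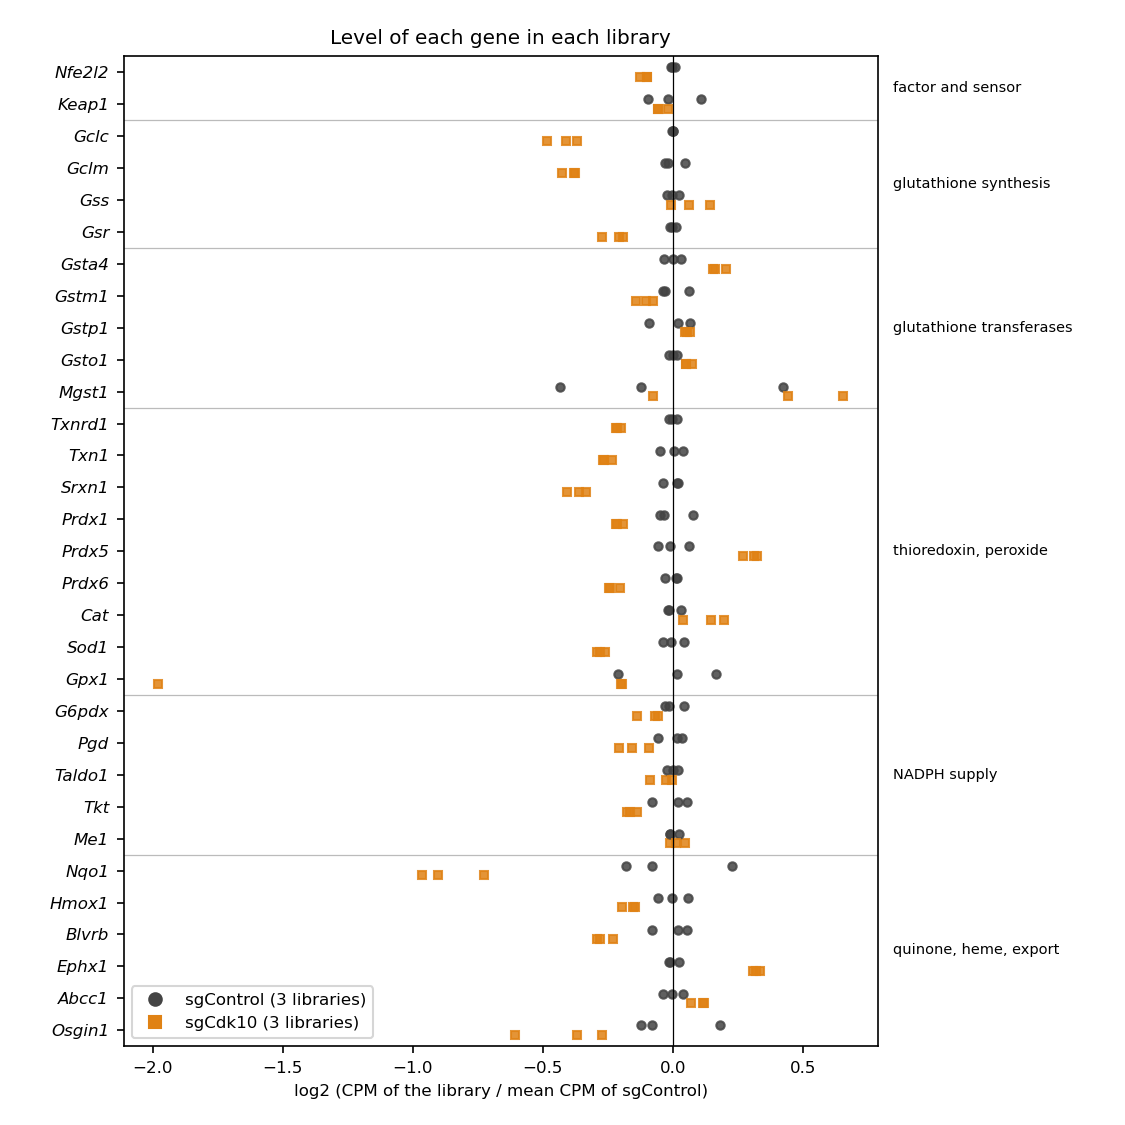
Level of each of the 31 genes in each library, as the log2 of its CPM over the sgControl mean (horizontal axis), with circles for the 3 sgControl and squares for the 3 sgCdk10 libraries, grouped by role. In 24 genes the 2 sets of points do not overlap, and the widest spread is that of Mgst1 and Gpx1, which had at most 24 counts.

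Levels per length differed widely between the genes. TPM, the transcript share per length computed over the merged exons of each gene, were highest for Txn1, with 920 ± 24.2 in sgControl (SD, n = 3). Prdx1 followed with 432 ± 19.3, Gsto1 with 419 ± 5.50 and Gstp1 with 294 ± 17.7 TPM. Gclc and Gclm stood at 85.8 ± 0.320 and 78.1 ± 2.77 TPM. At the low end were Nqo1 with 9.54 ± 1.4, Osgin1 with 9.48 ± 1.09, Gpx1 with 1.44 ± 0.192 and Mgst1 with 1.33 ± 0.418 TPM. Nqo1, often used as a marker of NRF2 activity, was thus among the least abundant of the 31 in these cells. Merged exons hold every annotated isoform, so a gene with long minor isoforms has its TPM understated.

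**Figure D2:**
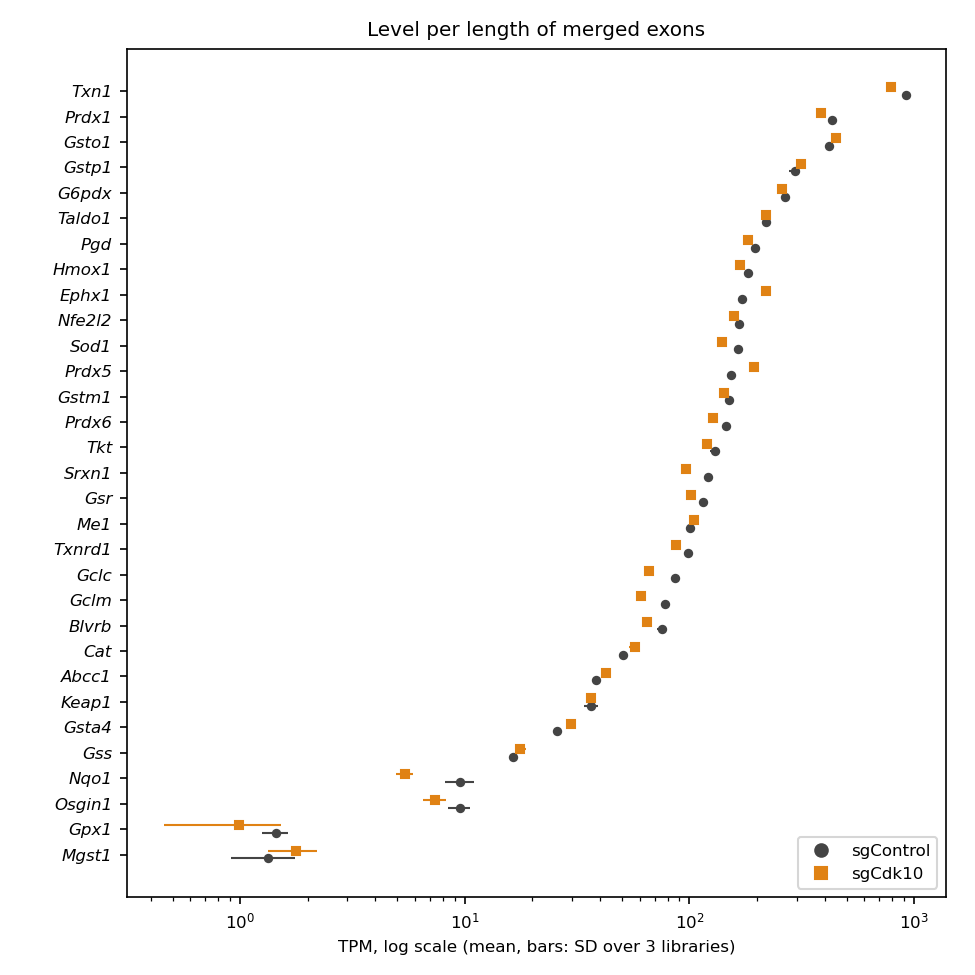
Level per length (TPM, log axis) of the 31 genes, ordered by the sgControl mean, with bars for the SD over 3 libraries. Txn1 is highest and Mgst1 lowest, and the differences between guides are small beside those between genes.

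The mRNA of the transcription factor itself fell slightly. Nfe2l2 (ENSMUSG00000015839, chr2:75675513-75704641, minus strand, 6 merged exons) had 197, 199 and 198 CPM in sgControl and 182, 185 and 185 in sgCdk10. Every sgCdk10 library lay below every sgControl library. On the log2 scale it fell by 0.11 (SE 0.029; edgeR adjusted p = 0.0042). Keap1, the gene of its cytoplasmic inhibitor (ENSMUSG00000003308, chr9:21229730-21239361, minus strand), had 53.2, 58.1 and 50.4 CPM in sgControl and 53.3, 51.9 and 51.9 in sgCdk10. The groups overlapped (log2 fold change -0.042, SE 0.049; edgeR adjusted p = 0.52). Without sgControl replicate 2, the highest library, the estimate for Keap1 was 0.016, and with a correction for GC content and length it was -0.13 (adjusted p = 0.015). Exons of the antisense gene Gm16754, which rose by 1.05 (edgeR adjusted p = 2.4e-05), cover 10.9% of the exon length of Keap1, and the strand setting of the counting is not known here.

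Among the genes of glutathione synthesis, the mRNA of both subunits of the first enzyme fell. Gclc encodes the catalytic subunit of glutamate-cysteine ligase, the rate-limiting enzyme of glutathione synthesis (ENSMUSG00000032350, chr9:77754535-77794485, plus strand, 18 merged exons). It had 102, 102 and 102 CPM in sgControl and 72.8, 78.8 and 76.5 in sgCdk10. The 3 control libraries lay close together, above all 3 others. It fell by 25.3%, or 0.42 in log2 units (SE 0.037; edgeR adjusted p = 1.6e-09). Gclm encodes the modifier subunit (ENSMUSG00000028124, chr3:122245557-122270732, plus strand, 8 merged exons). It had 160, 153 and 151 CPM in sgControl and 119, 115 and 119 in sgCdk10, again without overlap. It fell by 23.9%, or 0.39 in log2 units (SE 0.033; edgeR adjusted p = 7.7e-10), the smallest adjusted p of the 31 genes.

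The mRNA of the later enzymes of the pathway moved less. Gss, glutathione synthetase, had 31.1, 30.1 and 30.5 CPM in sgControl and 31.9, 33.8 and 30.4 in sgCdk10. The groups overlapped (log2 fold change 0.066, SE 0.054; edgeR adjusted p = 0.35). Gsr, glutathione reductase, which returns oxidised glutathione to its reduced form with NADPH, had 101, 99.7 and 99.3 CPM in sgControl and 86.5, 82.8 and 87.7 in sgCdk10. It fell by 0.22 (SE 0.035; edgeR adjusted p = 1.6e-05). The summed level of these 4 genes was 383 to 393 CPM in sgControl and 310 to 313 in sgCdk10. Exons of Gss share 15.4% of their length with genes on the opposite strand, among them Acss2. Acss2 itself was called lower, at -0.16 (edgeR adjusted p = 0.029).

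The glutathione transferases, which join glutathione to electrophiles, gave 1 call among 5 genes (20%, against 42.5% of all tested genes). Gstm1 had 67.7, 72.6 and 68.1 CPM in sgControl and 65.9, 64.6 and 62.9 in sgCdk10, a fall of 0.11 (SE 0.042; edgeR adjusted p = 0.040). That call was lost with DESeq2 (adjusted p = 0.13), with the GC and length correction (0.23), and without sgControl replicate 2 (0.21) or sgCdk10 replicate 1 (0.057), 2 (0.091) or 3 (0.16). Gsto1, an omega-class transferase, had 267, 270 and 264 CPM in sgControl and 277, 277 and 282 in sgCdk10. Its groups did not overlap, and it was not called (log2 fold change 0.060, SE 0.028; edgeR adjusted p = 0.083). Gsta4, an alpha-class enzyme that conjugates the lipid aldehyde 4-hydroxynonenal, had 10.2, 10.5 and 9.99 CPM in sgControl and 11.4, 11.4 and 11.8 in sgCdk10. It too was without overlap and not called (0.18, SE 0.083; edgeR adjusted p = 0.093). With the GC and length correction Gsto1 (0.12, adjusted p = 0.00045) and Gsta4 (0.26, adjusted p = 0.016) were called higher.

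Gstp1, the pi-class enzyme, had 150, 145 and 134 CPM in sgControl and 150, 148 and 149 in sgCdk10 (0.057, SE 0.036; edgeR adjusted p = 0.215). It has a close paralog, Gstp2, with 2.00 CPM in sgControl and 1.80 in sgCdk10, so the division of reads between the pair is uncertain. Mgst1, a membrane-bound transferase, was counted 20, 11 and 14 times in sgControl and 24, 14 and 22 times in sgCdk10; it was not called (0.37, SE 0.30; edgeR adjusted p = 0.34). The 5 transferases together summed to 478 to 499 CPM in sgControl and 502 to 506 in sgCdk10.

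Of 9 genes of thioredoxin and peroxide removal 6 fell, 2 rose and 1 was not called. The falls and rises were 66.7% and 22.2% of the 9, against 20.4% and 22.1% of all tested genes. The genes of thioredoxin, its reductase and sulfiredoxin were among those that fell. Txnrd1, thioredoxin reductase, which passes electrons from NADPH to thioredoxin, had 222, 217 and 219 CPM in sgControl and 189, 188 and 191 in sgCdk10. Txn1, thioredoxin itself, had 294, 306 and 313 CPM in sgControl and 259, 253 and 253 in sgCdk10. Srxn1, sulfiredoxin, which repairs overoxidised peroxiredoxins, had 109, 109 and 105 CPM in sgControl and 81.0, 83.7 and 85.3 in sgCdk10. In all 3 genes every sgCdk10 library lay below every sgControl library. The falls were 0.21 for Txnrd1 (SE 0.029; edgeR adjusted p = 1.9e-06), 0.26 for Txn1 (SE 0.029; adjusted p = 1.5e-07) and 0.37 for Srxn1 (SE 0.036; adjusted p = 9.9e-09). Srxn1 (ENSMUSG00000032802, chr2:152105516-152111376, plus strand, 2 merged exons) has both kinds of match in the promoter shown above.

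The peroxiredoxins divided. Prdx1, a cytosolic peroxidase that thioredoxin reduces, had 401, 404 and 437 CPM in sgControl and 357, 363 and 356 in sgCdk10, a fall of 0.21 (SE 0.031; edgeR adjusted p = 7.4e-06). Prdx6, a peroxidase that uses glutathione, had 222, 215 and 223 CPM in sgControl and 186, 186 and 191 in sgCdk10, a fall of 0.23 (SE 0.030; edgeR adjusted p = 8.0e-07). Prdx5, which acts in mitochondria and peroxisomes as well as in the cytosol (ENSMUSG00000024953, chr19:6906697-6910106, minus strand, 3 merged exons), went the other way. It had 108, 103 and 99.4 CPM in sgControl and 125, 128 and 129 in sgCdk10, a rise of 0.30 (SE 0.035; edgeR adjusted p = 1.7e-07). Exons of Trmt112 on the opposite strand share 19.1% of the exon length of Prdx5, and Trmt112 itself was not called (-0.059; edgeR adjusted p = 0.37).

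Sod1, the cytosolic superoxide dismutase, had 204, 211 and 199 CPM in sgControl and 171, 167 and 169 in sgCdk10. It fell by 0.28 (SE 0.031; edgeR adjusted p = 8.9e-08). Cat, the peroxisomal catalase, had 41.2, 41.1 and 42.5 CPM in sgControl and 47.7, 46.1 and 42.8 in sgCdk10, where the lowest sgCdk10 library was close to the highest control. Its rise of 0.13 (SE 0.049; edgeR adjusted p = 0.039) was not called with DESeq2 (adjusted p = 0.16), limma-voom (0.053) or the replicate block (0.057), nor without sgControl replicate 1 (0.091) or 2 (0.095) or sgCdk10 replicate 1 (0.20) or 2 (0.11). Gpx1, a glutathione peroxidase, was counted 13, 10 and 12 times in sgControl and 3, 10 and 11 times in sgCdk10 (-0.57, SE 0.41; edgeR adjusted p = 0.27). Without sgCdk10 replicate 1, the lowest library, the estimate was -0.19. Whether reads of Gpx1 were assigned to another identifier was not tested. The 9 genes of thioredoxin and peroxide removal summed to 1601 to 1639 CPM in sgControl and 1415 to 1418 in sgCdk10.

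**Figure D3:**
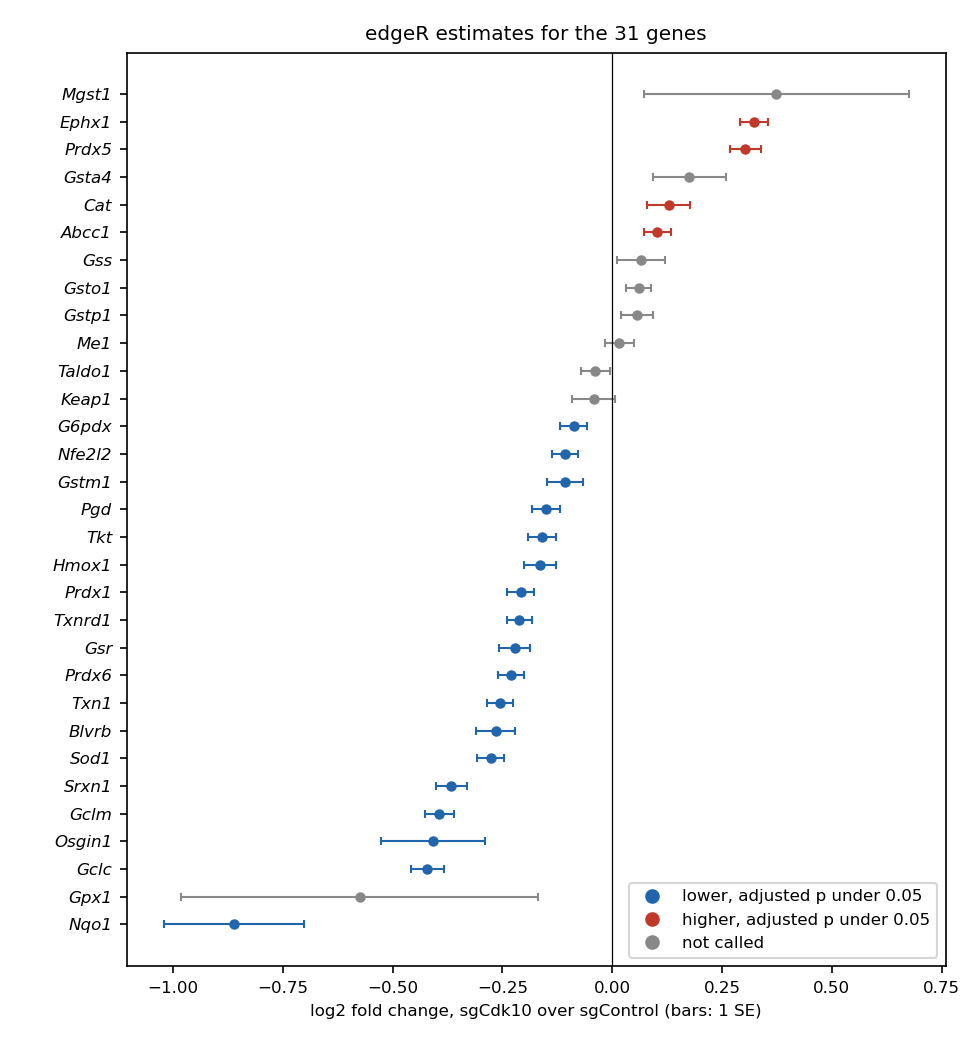
edgeR log2 fold change of sgCdk10 over sgControl for the 31 genes, ordered by size, with bars of 1 SE and colour for the call. The 18 called falls lie between -0.86 (Nqo1) and -0.087 (G6pdx), and the 4 called rises between 0.10 (Abcc1) and 0.32 (Ephx1).

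Genes of NADPH supply changed by small amounts: 3 of 5 fell (60%, against 20.4% of all tested genes). G6pdx, glucose-6-phosphate dehydrogenase, opens the pentose phosphate pathway and had 256, 266 and 253 CPM in sgControl and 248, 235 and 246 in sgCdk10. Its fall of 0.087 (SE 0.031; edgeR adjusted p = 0.024) was not called without sgControl replicate 2 (adjusted p = 0.14) or sgCdk10 replicate 2 (adjusted p = 0.18). Exons of Ikbkg on the opposite strand, which fell by 0.25 (edgeR adjusted p = 0.00011), share 13.6% of the exon length of G6pdx. Pgd, the second NADPH-producing enzyme of the pathway, had 407, 402 and 382 CPM in sgControl and 373, 344 and 357 in sgCdk10. It fell by 9.87%, or 0.15 in log2 units (SE 0.032; edgeR adjusted p = 0.00047).

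Of the enzymes of the nonoxidative branch, transketolase (Tkt) had 304, 311 and 284 CPM in sgControl and 272, 267 and 265 in sgCdk10, and it fell by 10.5%, or 0.16 in log2 units (SE 0.032; edgeR adjusted p = 0.00025). Transaldolase (Taldo1) had 152, 150 and 147 CPM in sgControl and 141, 147 and 149 in sgCdk10, with overlapping groups (-0.038, SE 0.032; edgeR adjusted p = 0.37). Me1, the cytosolic malic enzyme, had 121, 121 and 124 CPM in sgControl and 121, 126 and 123 in sgCdk10 (0.017, SE 0.032; edgeR adjusted p = 0.71). The 5 genes summed to 1191 to 1250 CPM in sgControl and 1119 to 1156 in sgCdk10.

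The widest spread of changes was among the genes of quinone, heme and xenobiotic handling. All 6 of these were called, as were 42.5% of all tested genes. Nqo1, a quinone reductase that uses NADPH (ENSMUSG00000003849, chr8:107388225-107403206, minus strand, 6 merged exons), was counted 73, 78 and 99 times in sgControl and 51, 42 and 48 times in sgCdk10. In CPM these were 4.12, 4.41 and 5.46 against 2.82, 2.39 and 2.49. It fell by 0.86 in log2 units, to 0.551-fold (SE 0.16; edgeR adjusted p = 0.00011), the largest called change of the 31. The estimate was -0.94 to -0.73 when any 1 library was left out. Osgin1, an oxidative stress-induced growth inhibitor, had 7.34, 9.05 and 7.56 CPM in sgControl and 5.25, 6.61 and 6.18 in sgCdk10, a fall of 0.41 (SE 0.12; edgeR adjusted p = 0.0071). Its call was lost without sgControl replicate 2 (-0.31, adjusted p = 0.064) or sgCdk10 replicate 1 (-0.32, adjusted p = 0.055).

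Heme is broken down to biliverdin and then bilirubin. Of 3 listed genes of heme and biliverdin handling, Hmox1 and Blvrb fell. Blvra, biliverdin reductase A, from the further list of detoxification and export and named after its values were seen, was not called (-0.022; edgeR adjusted p = 0.83). Hmox1, heme oxygenase 1, had 100, 105 and 96.7 CPM in sgControl and 90.9, 87.7 and 90.4 in sgCdk10, a fall of 0.16 (SE 0.037; edgeR adjusted p = 0.00079). Blvrb, biliverdin reductase B, had 68.9, 67.4 and 62.8 CPM in sgControl and 54.6, 54.3 and 56.6 in sgCdk10, a fall of 0.27 (SE 0.044; edgeR adjusted p = 3.1e-05). Ephx1, the microsomal epoxide hydrolase (ENSMUSG00000038776, chr1:180976210-181020904, minus strand, 11 merged exons), rose instead. It had 104, 107 and 104 CPM in sgControl and 133, 130 and 131 in sgCdk10, a rise of 25.03%, or 0.32 in log2 units (SE 0.032; edgeR adjusted p = 1.4e-08).

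Abcc1, an exporter of glutathione conjugates, had 187, 182 and 177 CPM in sgControl and 197, 198 and 191 in sgCdk10. Its rise of 0.10 (SE 0.031; edgeR adjusted p = 0.0091) was not called with the GC and length correction (0.023, adjusted p = 0.51), nor without sgCdk10 replicate 1 (adjusted p = 0.052) or 2 (adjusted p = 0.052). The 6 genes of quinone, heme and xenobiotic handling summed to 454 to 474 CPM in sgControl and 478 to 483 in sgCdk10. Of the 4 rises, those of Ephx1 and Prdx5 were called in every alternative run, and those of Cat and Abcc1 were not. Without sgCdk10 replicate 1, and likewise without replicate 2, 2 genes rose and 16 fell.

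Genes with and without a promoter match can be set side by side as a description. Of the 10 genes with TGACNNNGC, 8 fell, 0 rose and 2 were not called, with a median log2 fold change of -0.18. Of the 15 with a promoter entry and no match 6 fell, 3 rose and 6 were not called, with a median of -0.042. Among the genes without an entry, Gclc, Gsr, Prdx6 and Hmox1 fell, Abcc1 rose and Gsta4 was not called. Of all tested genes, matched or not, 20.4% fell and 22.1% rose. How many of all genes with a match fell was not computed. Whether the match bears on the change was not tested. Nqo1, with the largest fall, had no match in this window, and Me1, whose match is shown above, was not called. With an A required after the last base of TGACNNNGC, only Pgd and Txnrd1 matched, against 3.45% of all genes. Among the 5 genes with TGANTCAGC, Osgin1, Prdx1 and Srxn1 fell, and Gstp1 and Me1 were not called.

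**Figure D4:**
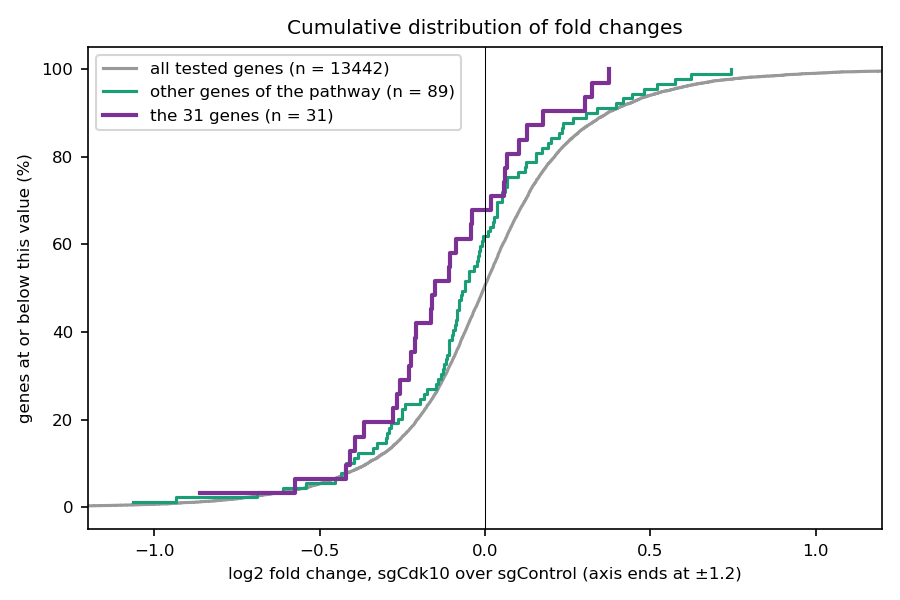
Cumulative share of genes (vertical axis, %) at or below a log2 fold change of sgCdk10 over sgControl (horizontal axis), for the 31 genes, 89 other tested genes of the pathway and all 13442 tested genes. The line of the 31 lies to the left of that of all genes over most of its range, with medians of -0.15 and -0.0031, and the 89 others have a median of -0.062.

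Another 117 genes of the pathway were listed by role, and 89 of them were tested. Of these 31 fell and 16 rose (34.8% and 18%, against 20.4% and 22.1% of all tested genes). The 2 called genes with the smallest p in each direction are named for each list.

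Among regulators and partners of NRF2, 5 of 12 tested genes fell and 2 rose (41.7% and 16.7%, against 20.4% and 22.1% of all genes). Sqstm1, the autophagy receptor p62, which binds KEAP1, had 632, 632 and 590 CPM in sgControl and 462, 440 and 467 in sgCdk10. It fell by 0.44 (SE 0.031; edgeR adjusted p = 7.3e-11). Exons of Mrnip on the opposite strand share 17.3% of the exon length of Sqstm1. Nfe2l1, the gene of the related factor NRF1, fell by 0.38, from 314, 316 and 304 to 235, 238 and 244 CPM. Maff, a small MAF partner, rose by 0.74 (SE 0.054; edgeR adjusted p = 5.3e-11), from 24.3, 24.3 and 23.9 to 39.7, 39.2 and 42.7 CPM. Fbxw11, a substrate receptor of a ubiquitin ligase that acts on NRF2, rose by 0.12, a call lost without sgControl replicate 2 (adjusted p = 0.060). The other small MAF genes, named after their values were seen, were Mafg, which fell by 0.13, and Mafk at 0.037, which was not called.

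Glutathione supply and turnover held the largest falls of all lists. Of 14 tested genes 5 fell and 3 rose (35.7% and 21.4%, against 20.4% and 22.1% of all tested genes). Chac1, which degrades glutathione, fell from 71.0, 71.7 and 66.8 to 33.5, 33.8 and 32.8 CPM, a log2 change of -1.06 (SE 0.046; edgeR adjusted p = 3.4e-15). Slc7a11, which imports cystine for glutathione synthesis, fell from 48.3, 48.9 and 51.5 to 26.3, 26.6 and 24.9 CPM, by 0.94 (SE 0.051; edgeR adjusted p = 2.9e-13). Glrx, glutaredoxin, rose by 0.58 and Gpx8, a peroxidase of the endoplasmic reticulum, by 0.48.

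In the further NADPH list 10 of 20 tested genes fell and 5 rose (50% and 25%, against 20.4% and 22.1% of all genes). The falls were led by genes of mitochondrial enzymes of folate metabolism. A place in this list does not mean that the enzyme itself makes NADPH. Shmt2, serine hydroxymethyltransferase, had 852, 862 and 810 CPM in sgControl and 560, 547 and 548 in sgCdk10, a fall of 0.61 (SE 0.028; edgeR adjusted p = 8.4e-15). Mthfd2, a mitochondrial methylenetetrahydrofolate dehydrogenase, fell by 0.54 (SE 0.028; edgeR adjusted p = 1.3e-13). These falls were larger than any of the 5 NADPH genes among the 31. Nadk2, the mitochondrial NAD kinase, rose by 0.30 and Mthfd2l, a paralog of Mthfd2, by 0.34.

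**Figure D5:**
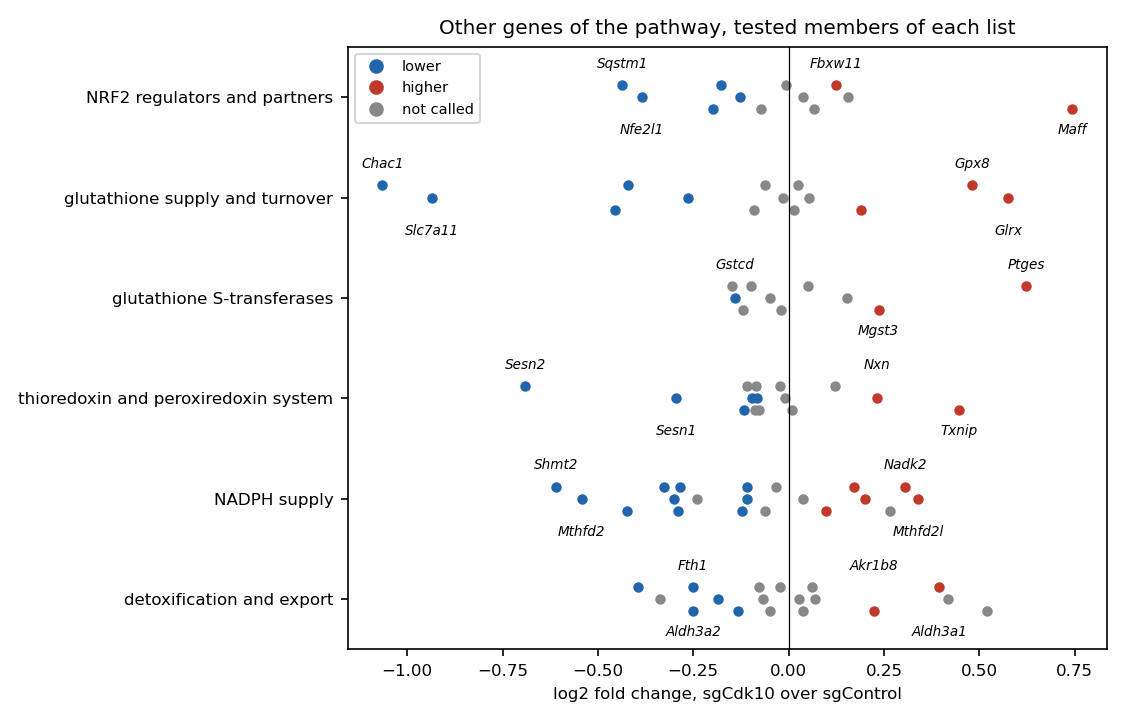
log2 fold change of sgCdk10 over sgControl for the 89 tested genes of the 6 further lists, coloured by call, with the leading called genes of each list labelled. Chac1 and Slc7a11 lie furthest to the left and Maff and Ptges furthest to the right.

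The remaining lists were mixed. Of 15 tested genes of the thioredoxin and peroxiredoxin system 5 fell and 2 rose (33.3% and 13.3%, against 20.4% and 22.1% of all genes). Sesn2, a sestrin, fell by 0.69 (SE 0.039; edgeR adjusted p = 5.0e-13) and Sesn1 by 0.29. Txnip, an inhibitor of thioredoxin, rose by 0.45 (SE 0.050; edgeR adjusted p = 1.0e-07) and Nxn, nucleoredoxin, by 0.23. Exons of Gm15441 on the opposite strand share 19.4% of the exon length of Txnip. Of 10 tested glutathione transferases outside the 31, 1 fell and 2 rose (10% and 20%, against 20.4% and 22.1% of all genes). The rises were those of Ptges, a prostaglandin E synthase that uses glutathione, from 93.2, 94.2 and 92.8 to 145, 144 and 142 CPM (0.62, SE 0.032; edgeR adjusted p = 9.4e-14), and of Mgst3 by 0.24, and the fall was that of Gstcd by 0.14.

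Of 18 tested genes of detoxification and export 5 fell and 2 rose (27.8% and 11.1%, against 20.4% and 22.1% of all genes). Fth1, the heavy chain of ferritin, which stores iron, fell by 0.25 (SE 0.025; edgeR adjusted p = 2.1e-08), from 3111, 3185 and 3271 to 2694, 2665 and 2684 CPM. Aldh3a2, a fatty aldehyde dehydrogenase, also fell by 0.25. The aldo-keto reductase gene Akr1b8 rose by 0.22 and the aldehyde dehydrogenase gene Aldh3a1 by 0.39 (SE 0.072; edgeR adjusted p = 8.9e-05). Gpx4, a glutathione peroxidase gene from the list of glutathione supply and turnover, was named after its values were seen. It was not called (0.023, edgeR adjusted p = 0.57).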

How the data were processed

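The authors deposited 1 table of raw counts per gene for 6 libraries of CT26 cells, not normalized, with Ensembl identifiers. Per the submitters' processing notes, the tools were featureCounts 2.0.3, HISAT2 2.2.1 and DESeq2 1.40.2 on mm10. For the annotation release and strand setting, the sources used here give nothing. Symbols, coordinates and exon lengths came from GENCODE M21 (GRCm38), in which 52081 identifiers had a symbol and 4929 had none. Promoter windows are those of RefSeq on GRCm38.p6. Of the 32 windows, which belong to 25 of the genes, 31 end in bases found in a transcript of the gene on its own strand.

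Titles gave each library's group and number. Genes passed edgeR's filterByExpr (minimum count 10, minimum total 15), were scaled by TMM and tested with edgeR 4.0.16 by the robust quasi-likelihood test with group as the only term, on all 13442 genes, with Benjamini-Hochberg adjustment and a threshold of 0.05. The SE is the log2 fold change over the root of F. A fitted fold change above 0 is higher in sgCdk10. No label tells whether a group's libraries are separate cultures; p-values therefore reflect only how much these libraries vary, possibly for technical reasons. CPM and TPM were computed from the deposited counts, TPM over merged exons. The scripts were tested on simulated counts in which far fewer genes changed than were called here. That run does not show how the scripts behave under so broad a change.

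The members and lists were chosen with earlier results of these data known, so counts over them are descriptions. The text names all 31 genes, Cdk10, and in each further list the 2 called genes with the smallest p per direction and at least 1 CPM; others are marked. Alternatives were scaling by DESeq2-type size factors or totals, DESeq2 1.42.0, limma-voom (limma 3.58.1), no filter, non-robust dispersions, a stricter filter (1 CPM throughout at least 1 group), the replicate block, a loess correction (span 0.5) for GC content and length, leaving out each library, and 2 other motifs.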

Additional observations from a re-analysis of the deposited data

How the results depend on the processing

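The 18 falls and 4 rises among the 31 genes became 17 and 3 with DESeq2, 18 and 3 with limma-voom, and 18 and 5 with the GC and length correction. Among all genes 2747 fell and 2970 rose, against 3225 and 2660 with the GC and length correction and 1988 and 2191 with DESeq2 (4179 calls in all). The counts over the 31 genes were unchanged with the other scalings, the other filters and non-robust dispersions. Leaving out 1 library gave 15 to 18 falls and 2 to 4 rises, and a median log2 fold change of -0.17 to -0.12. The further lists gave 26 to 36 falls and 14 to 16 rises, Cdk10 -0.90 to -0.75, and all genes 4791 to 6056 calls against 5717. Taldo1 changed sign with the GC and length correction (0.0038) and Keap1 without sgControl replicate 2 (0.016, within a range of -0.092 to 0.016 over the left-out libraries); neither was called there, and the cause was not tested. The number of promoters with a match was 10, and it was 2 with an A required after it, by construction, and 5 with TGANTCAGC, chosen after seeing the data. With the replicate block 18 members fell and 3 rose, and 5481 genes were called in all; Cat lost its call (adjusted p = 0.057). Libraries 1, 2 and 3 of the 2 groups, less their group means, correlated by number at 0.023, -0.055 and -0.095, so the numbers were not taken to pair them. Depth limits Mgst1 and Gpx1, which had at most 24 counts in any library.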
